A study of Mus musculus with 4 samples.

Results

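Transcripts of the TGF-beta, BMP and activin signalling system were examined in mouse embryonic fibroblasts with and without FAN, before and after tumour necrosis factor (TNF). The genes were taken from a list of 38 symbols covering ligands, latency proteins, receptors, SMADs, antagonists and direct targets, and every probe set naming only 1 of these genes was used. Of the 38, 37 were measured, by 84 probe sets, among 18193 genes in all; Gdf15 was not analysed here. The list was not chosen on these measurements but with earlier results of the same arrays known.

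TGF-beta and activin ligands bind paired serine/threonine kinase receptors that phosphorylate SMAD2 and SMAD3, while BMP ligands signal through SMAD1 and SMAD5. Both branches share SMAD4, and SMAD6 and SMAD7 act as feedback inhibitors. TGF-beta is secreted in a latent complex tethered to the matrix by latent TGF-beta binding proteins. In fibroblasts the TGF-beta branch is known for driving matrix and contractile genes. The Id genes, which encode inhibitors of basic helix-loop-helix transcription factors, are among the best known direct targets of the BMP branch.

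The 4 conditions were FAN -/- fibroblasts with TNF, untreated FAN -/- fibroblasts, FAN +/+ fibroblasts with TNF, and untreated FAN +/+ fibroblasts, all from C57BL/6 embryos. FAN, encoded by Nsmaf, is an adaptor of the TNF receptor. All cells spent 24 h without serum; in the treated dishes TNF (50 ng/ml) was present for the last 16 h, after 8 h without it. Whole-genome Affymetrix expression arrays were hybridised with total RNA, 1 array per condition, so no condition has a replicate. The labels do not say how many embryos or cell preparations stand behind a genotype, so FAN deficiency and differences between preparations cannot be told apart. Titles and source names gave the groups. For 2 samples the genotype entry disagrees with the title, and by those entries alone both untreated samples would be FAN +/+ and both TNF samples FAN -/-, so that TNF and genotype could not be told apart.

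The deposited values are on a log2 scale, with array medians of 6.21 to 6.30. Values under the median of all values (6.27, called the floor here) were set to it before differences were taken, and a difference with 1 side at the floor is a bound. Each gene is given by its probe set of highest mean unless others are named. Nsmaf had log2 values of 7.48 with TNF and 7.91 untreated in FAN -/- cells, against 8.55 with TNF and 8.95 untreated in FAN +/+ cells, which goes with the titles. All 10 fibroblast markers lay above the floor. Under it on all 4 arrays lay 5 of 7 macrophage and leukocyte markers (Ptprc, Cd68, Adgre1, Itgam and Fcgr3), 3 of 5 endothelial (Pecam1, Cdh5 and Emcn) and 3 of 6 epithelial markers (Cdh1, Krt18 and Krt14). The remaining markers of these lists, Csf1r, Lyz2, Kdr, Tek, Epcam, Krt8 and Krt5, exceeded it on all 4 arrays. Lyz2 lay at 7.89 to 9.60 and Epcam at 9.05 to 9.25. Of all 18193 genes, 12224 exceeded the floor on at least 1 array.

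Of the 37 genes, 36 exceeded the floor on at least 1 array and 35 on all 4. The exceptions were Nog, a secreted BMP antagonist, at 5.05 to 5.39 on the 4 arrays, and Bmp2, which exceeded the floor on a single array. The members were read by 3 measures of change. A gene is 2-fold apart when 2 arrays differ by at least 1 on the log2 scale. A gene is shared when it differs by at least 1.5-fold the same way in both genotypes (for TNF) or both treatments (for genotype), 2 differences that have no array in common. The third is an additive limma fit of genotype and TNF over 11817 genes, with a Benjamini-Hochberg adjusted p under 0.05, and genes are said to rise or fall only where they pass it. That fit leaves 1 residual degree of freedom and takes the difference between the genotypes' responses as error. The limma calls among the members dropped to 0 for TNF and 0 for genotype when the other factor was left out of the model (9 and 7 members at an unadjusted p under 0.05, against 7.48% and 14.1% of all genes). They dropped to 0 and 0 as well when genes under the floor were kept in the fit (14 and 12 members at an unadjusted p under 0.05, against 9.27% and 12.0% of all genes).

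The clearest pattern was a lower level of the Id genes with TNF. All 4 Id transcripts were lower with TNF in both genotypes. Id1, Id3 and Id4 fell in the additive fit, and so did the BMP-branch inhibitor Smad6 and the ligands Tgfb2 and Tgfb3. No member rose. In bulk RNA, fewer cells that express a gene and less RNA per cell cannot be told apart.

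In FAN -/- cells 6 of the 36 genes were 2-fold lower with TNF (Bmp4, Fst, Id1, Id2, Id3 and Id4) and 0 were 2-fold higher, against 1.07% lower and 1.35% higher among 12224 genes. In FAN +/+ cells 3 were 2-fold lower (Id1, Id4 and Tgfb2) and 0 higher, against 1.92% lower and 2.2% higher among all genes. The shared measure held for 6 lower genes (Id1, Id3, Id4, Smad6, Tgfb2 and Tgfb3) and for 1 higher gene, Grem1, against 1.92% and 2.27% of all genes. In limma the same 6 genes of 35 fitted fell and 0 rose, against 1.14% and 1.57% of all genes fitted. At an unadjusted p under 0.05, limma had 14 lower and 5 higher members, against 10.6% and 8.2% of all genes fitted. The median TNF difference of the 36 genes was -0.16 in FAN -/- and -0.15 in FAN +/+ cells, against 0.01 and -0.03 over all genes.

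**Figure D1:**
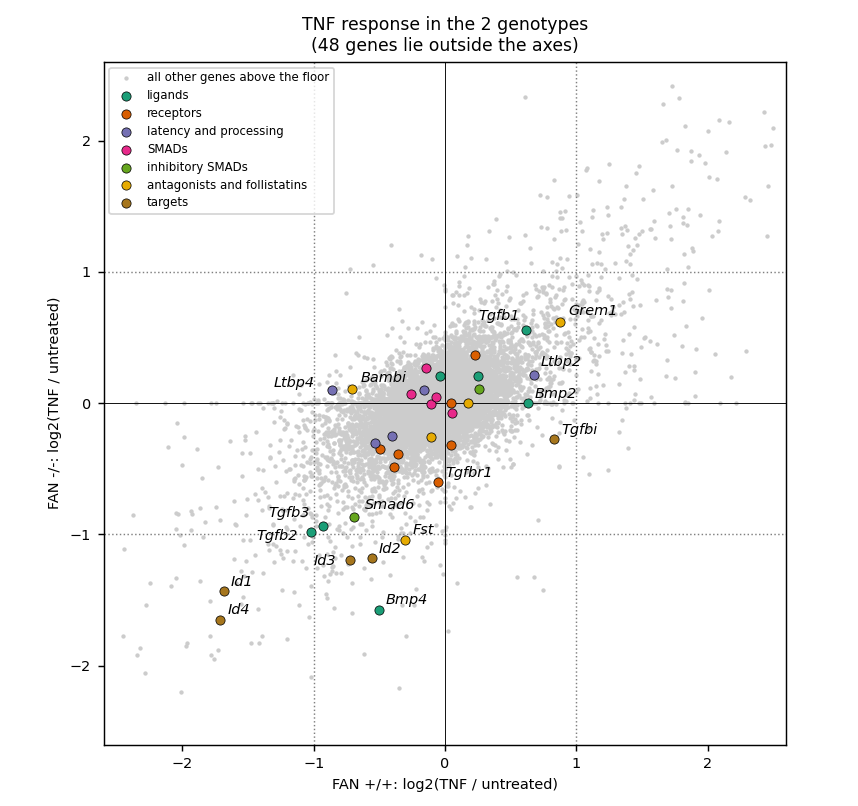
TNF response in FAN +/+ cells (horizontal axis, log2 of TNF over untreated) against FAN -/- cells (vertical axis, same scale); each point is 1 gene, grey for genes outside the list and coloured by role for its members, and dotted lines mark 2-fold. Id1 and Id4 lie beyond 2-fold lower on both axes, while the 5 receptor-regulated and common SMADs cluster near 0.

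Id1 had log2 values of 9.35 with TNF and 10.78 untreated in FAN -/- cells, and 9.54 with TNF and 11.23 untreated in FAN +/+ cells. Both TNF arrays lay below both untreated arrays. Id1 was 2.69-fold lower with TNF in FAN -/- and 3.22-fold lower in FAN +/+ cells, and it fell by 1.56 ± 0.11 on the log2 scale (SE, limma adjusted p = 0.0141).

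Id3 had 10.93 with TNF and 12.13 untreated in FAN -/- cells, and 11.26 with TNF and 11.99 untreated in FAN +/+ cells. The TNF arrays were again the lower pair. Id3 was 2.29-fold lower in FAN -/- and 1.65-fold lower in FAN +/+ cells and fell by 0.96 ± 0.14 (SE, limma adjusted p = 0.0498), just inside the threshold; the adjusted p was 0.0705 with a floor at the 30th percentile and 0.0666 without the intensity trend.

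Id4 combined a TNF and a genotype difference. Its log2 values were 9.08 with TNF and 10.73 untreated in FAN -/- cells, and 7.54 with TNF and 9.25 untreated in FAN +/+ cells. Each TNF array was below the untreated array of its genotype, and FAN -/- was above FAN +/+ in both treatments, so that the FAN -/- TNF array and the untreated FAN +/+ array were nearly level. TNF went with a 3.14-fold lower level in FAN -/- and a 3.27-fold lower level in FAN +/+ cells (limma, -1.68 ± 0.11 SE, adjusted p = 0.0115). All 3 Id4 probe sets gave TNF differences between -1.69 and -1.35 in FAN -/- and between -1.71 and -1.29 in FAN +/+ cells, 1 of them lying under the floor on the FAN +/+ TNF array.

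Id2 had 7.72 with TNF and 8.91 untreated in FAN -/- cells, and 8.77 with TNF and 9.32 untreated in FAN +/+ cells. The FAN -/- TNF array stood lowest and the other 3 lay within a narrower range. Id2 was 2.27-fold lower with TNF in FAN -/- and 1.47-fold lower in FAN +/+ cells, and did not pass limma (adjusted p = 0.105). A second probe set above the floor on all arrays gave -1.65 in FAN -/- and -0.44 in FAN +/+ cells, and the remaining one lay under the floor on 3 arrays. With all 3 probe sets averaged, the Id2 TNF effect was -1.01 (limma adjusted p = 0.0470).

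Promoter sequence is shown for the TNF-lowered genes that RefSeq's table covers, because Id genes and Smad6 are textbook SMAD targets. These are the genes 2-fold lower in either genotype or past limma; Id1, Tgfb3 and Fst have no entry. Of the 37 measured genes, 26 have a window there of 250 bases before to 50 bases after the start (build GRCm38.p6). Both strands were searched for GTCTAGAC, the SMAD palindrome, for CAGACA, a SMAD-binding box, for GGCGCC, a GC-rich SMAD1/SMAD5 motif, and for the NF-kB consensus motif. Matches are in capitals, and no motif overlaps another in these windows. The windows lie at chr12:25096043-25096342 (minus strand, Id2), chr4:136143572-136143871 (plus, Id3), chr13:48260866-48261165 (plus, Id4), chr9:64022010-64022309 (minus, Smad6), chr1:186705940-186706239 (minus, Tgfb2) and chr14:46390620-46390919 (minus, Bmp4).
Id2: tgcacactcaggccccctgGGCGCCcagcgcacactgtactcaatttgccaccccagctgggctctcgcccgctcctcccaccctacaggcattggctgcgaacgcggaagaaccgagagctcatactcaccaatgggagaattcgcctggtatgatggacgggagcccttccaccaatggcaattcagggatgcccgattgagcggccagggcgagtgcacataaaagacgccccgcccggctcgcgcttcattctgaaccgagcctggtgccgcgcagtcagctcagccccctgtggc
Id3: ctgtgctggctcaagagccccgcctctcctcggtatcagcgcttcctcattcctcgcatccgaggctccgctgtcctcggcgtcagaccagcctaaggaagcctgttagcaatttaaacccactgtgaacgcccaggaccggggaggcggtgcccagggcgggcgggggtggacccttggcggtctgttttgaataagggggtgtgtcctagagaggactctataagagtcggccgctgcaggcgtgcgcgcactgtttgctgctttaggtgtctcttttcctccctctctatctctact
Id4: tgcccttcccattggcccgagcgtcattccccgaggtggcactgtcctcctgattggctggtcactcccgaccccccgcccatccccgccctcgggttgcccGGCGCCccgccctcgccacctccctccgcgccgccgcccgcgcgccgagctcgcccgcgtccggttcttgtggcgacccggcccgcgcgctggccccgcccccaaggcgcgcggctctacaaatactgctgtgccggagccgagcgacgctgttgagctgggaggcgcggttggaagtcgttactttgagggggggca
Smad6: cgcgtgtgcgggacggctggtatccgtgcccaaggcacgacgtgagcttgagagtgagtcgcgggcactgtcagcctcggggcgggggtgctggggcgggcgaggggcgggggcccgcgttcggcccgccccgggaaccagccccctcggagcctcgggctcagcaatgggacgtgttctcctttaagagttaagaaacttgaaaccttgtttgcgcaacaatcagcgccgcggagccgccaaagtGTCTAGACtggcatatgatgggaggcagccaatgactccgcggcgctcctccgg
Tgfb2: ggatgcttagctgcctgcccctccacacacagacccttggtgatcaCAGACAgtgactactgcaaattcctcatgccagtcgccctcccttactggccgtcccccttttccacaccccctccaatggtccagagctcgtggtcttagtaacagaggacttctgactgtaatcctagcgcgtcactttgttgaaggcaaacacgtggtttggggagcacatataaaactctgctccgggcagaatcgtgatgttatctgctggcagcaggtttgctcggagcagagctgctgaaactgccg
Bmp4: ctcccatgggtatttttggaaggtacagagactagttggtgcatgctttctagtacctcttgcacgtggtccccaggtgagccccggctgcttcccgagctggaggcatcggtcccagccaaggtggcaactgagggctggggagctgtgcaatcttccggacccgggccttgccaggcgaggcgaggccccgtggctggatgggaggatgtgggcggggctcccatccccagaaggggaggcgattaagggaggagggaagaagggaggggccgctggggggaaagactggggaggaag

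GGCGCC occurs once in the Id2 window, beginning 231 bases before the start, and once in the Id4 window, 148 bases before it. The Smad6 window holds GTCTAGAC, beginning 4 bases before the start, and the Tgfb2 window holds CAGACA, beginning 204 bases before it. The Id3 and Bmp4 windows hold none of the motifs, which says only that these letters are absent from these bases. GGCGCC was found in 11.9% of all 32851 windows and in 9 of the 26 genes, CAGACA in 21.0% and 5, GTCTAGAC in 0.213% and 1, and the NF-kB motif in 8.46% and 1. The percentages count windows, whereas a gene counts if any of its windows holds the motif, so the units differ. These matches are descriptions of sequence and not evidence of binding.

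Inhibitory SMADs differed from each other. Smad6, which blocks mainly the BMP branch, had 9.85 with TNF and 10.71 untreated in FAN -/- cells, and 10.42 with TNF and 11.11 untreated in FAN +/+ cells. Within each genotype the TNF array was lower, by 1.82-fold in FAN -/- and 1.62-fold in FAN +/+ cells. Smad6 fell by 0.78 ± 0.10 (SE, limma adjusted p = 0.0390); the adjusted p was 0.0553 with a floor at the 30th percentile and 0.0514 without the intensity trend. Smad7, the more general inhibitor, had 10.33 with TNF and 10.23 untreated in FAN -/- cells and 10.12 with TNF and 9.86 untreated in FAN +/+ cells, and did not pass (limma 0.18 ± 0.10 SE, adjusted p = 0.414).

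The signal-transducing SMADs were nearly level. Across Smad1, Smad2, Smad3, Smad4 and Smad5 the TNF difference lay between -0.08 and 0.27 in FAN -/- and between -0.26 and 0.05 in FAN +/+ cells. The widest genotype difference was that of Smad3 untreated, at -0.53, with values of 10.39 in FAN -/- and 10.92 in FAN +/+ cells. None of the 5 passed limma for either factor. At an unadjusted p under 0.05 there were 0, against 18.8% of all genes fitted for TNF and 24.5% for genotype.

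**Figure D2:**
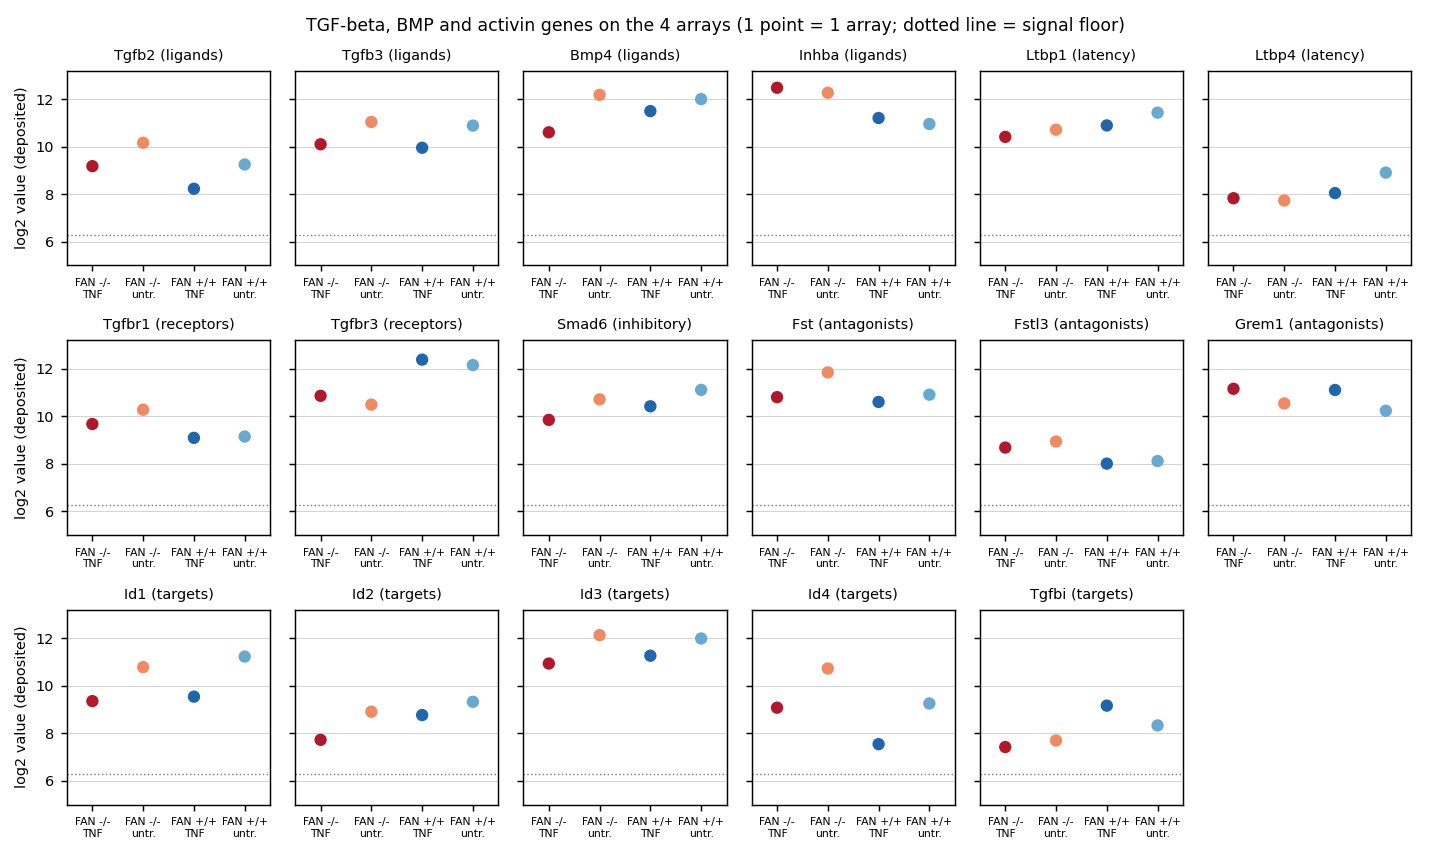
Deposited log2 values of the 17 genes that met any of the measures of change; each panel is 1 gene, each point 1 array, in the order FAN -/- with TNF, FAN -/- untreated, FAN +/+ with TNF, FAN +/+ untreated, and the dotted line is the floor. Id1, Id3, Id4, Smad6, Tgfb2 and Tgfb3 sit lower with TNF in both genotypes, and Inhba, Id4 and Tgfb2 sit higher in FAN -/- cells.

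The 3 TGF-beta ligands went different ways with TNF. Tgfb2 had 9.18 with TNF and 10.16 untreated in FAN -/- cells, and 8.23 with TNF and 9.25 untreated in FAN +/+ cells. The TNF array was lower in each genotype, and the step was nearly equal, 1.98-fold in FAN -/- and 2.03-fold in FAN +/+ cells (limma, -1.003 ± 0.11 SE, adjusted p = 0.0267). The 3 Tgfb2 probe sets above the floor on all arrays agreed in direction, with differences of -1.08 to -0.95 in FAN -/- and -1.26 to -0.997 in FAN +/+ cells.

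Tgfb3 had 10.10 with TNF and 11.04 untreated in FAN -/- cells, and 9.95 with TNF and 10.89 untreated in FAN +/+ cells. The 2 TNF arrays were close to each other and below the 2 untreated ones. The level was 1.92-fold lower in FAN -/- and 1.91-fold lower in FAN +/+ cells, and Tgfb3 fell by 0.94 ± 0.09 (SE, limma adjusted p = 0.0231).

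Tgfb1 lay on the other side. It had 9.22 with TNF and 8.67 untreated in FAN -/- cells, and 9.05 with TNF and 8.44 untreated in FAN +/+ cells, so that both TNF arrays were the higher pair. The difference was 1.47-fold in FAN -/- and 1.53-fold in FAN +/+ cells and did not pass limma (0.58 ± 0.11 SE, adjusted p = 0.0825). A second Tgfb1 probe set lay under the floor on all 4 arrays.

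Among BMP ligands, Bmp4 differed most with TNF in FAN -/- cells. It had 10.61 with TNF and 12.18 untreated in FAN -/- cells, and 11.50 with TNF and 12.00 untreated in FAN +/+ cells. The untreated arrays were nearly level and the FAN -/- TNF array stood lowest. Bmp4 was 2.98-fold lower with TNF in FAN -/- and 1.42-fold lower in FAN +/+ cells. Limma gave -1.04 ± 0.26 (SE, adjusted p = 0.146).

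Bmp2 lay under the floor on 3 arrays. The deposited values were 5.18 with TNF and 3.72 untreated in FAN -/- cells, and 6.90 with TNF and 4.93 untreated in FAN +/+ cells. With the floor as lower limit, Bmp2 was at least 1.55-fold higher with TNF in FAN +/+ cells, and in FAN -/- cells no fold can be given. It exceeded the floor on too few arrays to enter limma.

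The activin subunit genes showed little TNF difference. Inhba, which encodes the beta A subunit of activin A, differed with TNF by 0.21 in FAN -/- and 0.25 in FAN +/+ cells, and Inhbb, the beta B subunit gene, by 0.20 and -0.03. Fst, encoding the activin-binding protein follistatin, had 10.80 with TNF and 11.84 untreated in FAN -/- cells, and 10.60 with TNF and 10.91 untreated in FAN +/+ cells. The untreated FAN -/- array stood apart above the other 3. Fst was 2.06-fold lower with TNF in FAN -/- and 1.24-fold lower in FAN +/+ cells, did not pass limma (adjusted p = 0.179), and its second probe set gave -1.18 in FAN -/- and -0.30 in FAN +/+ cells. The summed signal of the 7 macrophage and leukocyte markers was also highest on the untreated FAN -/- array, at 1219. It was 690 for FAN -/- with TNF, 735 for FAN +/+ with TNF and 494 for untreated FAN +/+. Lyz2 alone gave 778 of the 1219, and had 310, 347 and 237 on those other arrays in the same order. The 5 markers under the floor also entered the sum, such as Ptprc at 16 to 18 on the 4 arrays. The part of macrophages and leukocytes in the Fst values was not tested.

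Grem1, encoding the BMP antagonist gremlin, was the only member higher with TNF by the shared measure, which Bmp2 also meets when no floor is set. It had 11.15 with TNF and 10.54 untreated in FAN -/- cells, and 11.10 with TNF and 10.23 untreated in FAN +/+ cells. Both TNF arrays lay above both untreated arrays. The difference was 1.53-fold in FAN -/- and 1.83-fold in FAN +/+ cells and stayed just outside the threshold (limma 0.75 ± 0.11 SE, adjusted p = 0.0506); it was 0.0418 without a floor, 0.00779 with centred arrays, 0.0449 with quantile normalization and 0.0430 with probe sets averaged.

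Bambi, a pseudoreceptor that dampens signalling, had 7.22 with TNF and 7.12 untreated in FAN -/- cells, and 7.18 with TNF and 7.89 untreated in FAN +/+ cells. Only the untreated FAN +/+ array was set apart, higher than the other 3. Fstl1, a secreted follistatin-like glycoprotein, lay between 13.58 and 13.78 on all 4 arrays, and Fstl3, which binds activins, differed with TNF by -0.26 in FAN -/- and -0.11 in FAN +/+ cells.

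TNF differences of the 7 member receptors were below 2-fold throughout. Across Tgfbr1, Tgfbr2, Tgfbr3, Bmpr1a, Bmpr2, Acvr1 and Acvr2a they ranged from -0.60 to 0.37 in FAN -/- and from -0.49 to 0.23 in FAN +/+ cells. In limma 0 of the 7 passed, against 1.57% higher and 1.14% lower among all genes fitted. At an unadjusted p under 0.05 there were 4 of the 7, against 18.8% of all genes fitted. Bmpr1a, a type I BMP receptor gene, differed by -0.48 in FAN -/- and -0.39 in FAN +/+ cells. Tgfbr2, the type II TGF-beta receptor gene, differed by -0.39 in FAN -/- and -0.36 in FAN +/+ cells (limma -0.37 ± 0.08 SE, adjusted p = 0.102).

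The latency genes had TNF differences of -0.30 to 0.22 in FAN -/- and -0.86 to 0.67 in FAN +/+ cells, a range that includes Bmp1, the procollagen C-proteinase that also cleaves latency proteins. Ltbp2 had 13.05 with TNF and 12.84 untreated in FAN -/- cells, and 12.89 with TNF and 12.21 untreated in FAN +/+ cells. Ltbp4 had 7.83 with TNF and 7.73 untreated in FAN -/- cells, and 8.05 with TNF and 8.91 untreated in FAN +/+ cells. In both genes the untreated FAN +/+ array was the one set apart, lowest for Ltbp2 and highest for Ltbp4.

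Tgfbi, a secreted matrix protein gene induced by TGF-beta, was the member with the widest gap between the genotypes' TNF responses. Its probe set of highest mean gave 7.42 with TNF and 7.70 untreated in FAN -/- cells, and 9.16 with TNF and 8.33 untreated in FAN +/+ cells. The FAN -/- arrays were the lower pair, with the lowest value under TNF, whereas in FAN +/+ cells the TNF array was the higher one. The TNF difference was -0.28 in FAN -/- and 0.83 in FAN +/+ cells, and over the 3 probe sets above the floor on all arrays it ran from -0.93 to -0.28 in FAN -/- and from 0.20 to 0.83 in FAN +/+ cells. All 3 were thus lower with TNF in FAN -/- and higher with TNF in FAN +/+ cells. The remaining probe set lay under the floor on both FAN -/- arrays, at 5.52 with TNF and 6.01 untreated, so its TNF direction there is not known.

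Of the members, 2 reached a 2-fold gap between the responses, FAN -/- minus FAN +/+, namely Tgfbi at -1.11 and Bmp4 at -1.07, against 0.818% of all genes in that direction. None had a 2-fold gap the other way, against 0.794% of all genes. The gap between responses could not be tested, because the 4 arrays leave no degree of freedom for it.

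The genotypes were then compared within each treatment. FAN -/- cells had more Inhba, Id4, Tgfb2 and Fstl3 and less Tgfbr3 and Tgfbi in both treatments. Untreated, 3 of 36 genes were 2-fold higher in FAN -/- cells (Id4, Inhba and Tgfbr1) and 2 lower (Ltbp4 and Tgfbr3), against 1.45% and 2.89% of all genes. With TNF, 2 were higher (Id4 and Inhba) and 3 lower (Id2, Tgfbi and Tgfbr3), against 1.55% and 2.64%. The shared measure held for 4 higher (Fstl3, Id4, Inhba and Tgfb2) and 2 lower genes (Tgfbi and Tgfbr3), against 2.56% and 3.71%. In limma 4 of 35 rose in FAN -/- cells (the same 4) and 2 fell (Ltbp1 and Tgfbr3), against 2.94% and 3.67%. At an unadjusted p under 0.05 there were 9 higher and 10 lower members, against 11.2% and 13.3% of all genes fitted. With the probe sets of a gene averaged, the untreated count was 1 higher and 3 lower, with 3 genes in common with the 5 above.

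Tgfbr3, encoding the co-receptor betaglycan, which presents TGF-beta2 and binds inhibin, had the largest genotype difference among the members in the fit; with probe sets averaged, Tgfbi had a larger one, at -1.71 against -1.64. It had 10.86 with TNF and 10.49 untreated in FAN -/- cells, and 12.38 with TNF and 12.15 untreated in FAN +/+ cells. Both FAN -/- arrays lay well below both FAN +/+ arrays. The level was 2.87-fold lower with TNF and 3.17-fold lower untreated in FAN -/- cells, and it fell by 1.59 ± 0.09 (SE, limma adjusted p = 0.00729). The second probe set gave -1.78 with TNF and -1.58 untreated.

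Inhba had 12.48 with TNF and 12.27 untreated in FAN -/- cells, against 11.21 with TNF and 10.95 untreated in FAN +/+ cells. The FAN -/- pair was above the FAN +/+ pair. The level was 2.41-fold higher with TNF and 2.49-fold higher untreated in FAN -/- cells (limma 1.29 ± 0.08 SE, adjusted p = 0.00854), while a second Inhba probe set was under the floor on all arrays, and with both averaged the effect was 0.75 (limma adjusted p = 0.0313). Inhbb, the other activin subunit gene, differed by -0.26 with TNF and -0.49 untreated and did not pass (limma adjusted p = 0.125).

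Id4 rose in FAN -/- cells (limma, 1.504 ± 0.11 SE on the log2 scale, adjusted p = 0.00968), being 2.90-fold higher with TNF and 2.78-fold higher untreated. The other Id genes did not share this: Id1 differed by -0.19 with TNF and -0.44 untreated, Id3 by -0.33 and 0.14, and Id2 by -1.04 and -0.42. Tgfb2 rose by 0.93 ± 0.11 (SE, limma adjusted p = 0.0211), while Tgfb1 and Tgfb3 differed by 0.23 at most.

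Fstl3 had 8.68 with TNF and 8.94 untreated in FAN -/- cells, against 8.00 with TNF and 8.11 untreated in FAN +/+ cells, a non-overlapping pair (limma 0.75 ± 0.12 SE, adjusted p = 0.0398). Tgfbr1, the type I TGF-beta receptor gene, had 9.67 with TNF and 10.27 untreated in FAN -/- cells, against 9.09 with TNF and 9.14 untreated in FAN +/+ cells. The log2 difference was 0.58 with TNF and 1.13 untreated, and it did not pass (limma 0.86 ± 0.16 SE, adjusted p = 0.0592). Its 2 other probe sets were under the floor, and with all averaged the effect was 0.39.

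Ltbp1, encoding a latent TGF-beta binding protein, had 10.41 with TNF and 10.72 untreated in FAN -/- cells, against 10.89 with TNF and 11.43 untreated in FAN +/+ cells. Both FAN -/- arrays were lower, and it fell with FAN deficiency by 0.60 ± 0.10 (SE, limma adjusted p = 0.0477). The adjusted p was 0.0603 with a floor at the 30th percentile, 0.0679 with probe sets averaged and 0.0638 without the intensity trend. Tgfbi was 3.35-fold lower with TNF and 1.55-fold lower untreated by its first probe set, and over the 3 probe sets above the floor on all arrays the difference ran from -2.58 to -1.74 with TNF and from -1.51 to -0.63 untreated. Limma gave -1.19 ± 0.28 (SE, adjusted p = 0.0927), and -1.71 with probe sets averaged (adjusted p = 0.0422).

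**Figure D3:**
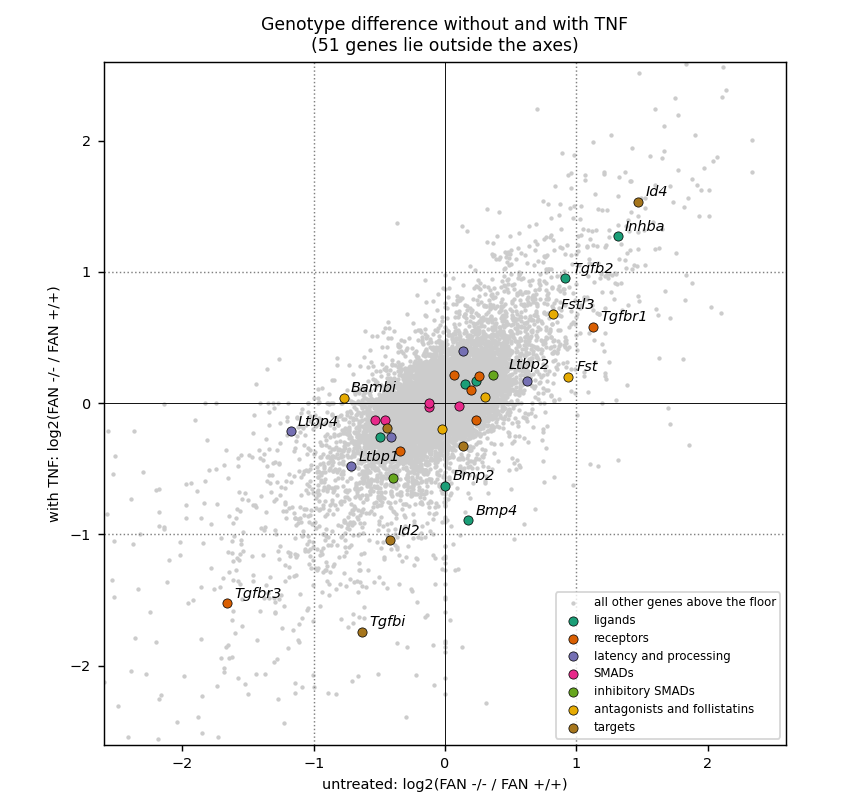
Difference between FAN -/- and FAN +/+ cells untreated (horizontal axis, log2 ratio) and with TNF (vertical axis, same scale); each point is 1 gene, grey for genes outside the list, coloured by role for its members, dotted lines at 2-fold. Id4 and Inhba lie beyond 2-fold higher and Tgfbr3 beyond 2-fold lower on both axes.

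Fibroblast markers also differed between the genotypes. Of the 10, 0 were 2-fold higher and 3 were 2-fold lower in FAN -/- cells in both treatments, namely Lum, Dcn and Pdgfra. Over all genes, 1.45% were 2-fold higher and 2.89% 2-fold lower untreated, and 1.55% and 2.64% with TNF. Thy1 lay the other way, 1.54-fold higher untreated and 1.30-fold higher with TNF in FAN -/- cells, and did not pass (limma genotype adjusted p = 0.088). With TNF, 1 of the 10 fell in limma and 0 rose, against 1.14% and 1.57% of all genes fitted. That marker was Thy1 (limma -0.82 ± 0.12 SE, adjusted p = 0.0498). The summed signal of the 10 markers was 73378 with TNF and 85156 untreated in FAN -/- cells. In FAN +/+ cells it was 106194 with TNF and 105118 untreated. Lum, which encodes the matrix proteoglycan lumican, had 7.45 with TNF and 8.78 untreated in FAN -/- cells, against 13.42 with TNF and 12.75 untreated in FAN +/+ cells. The part of the cells' makeup in the genotype differences of Tgfbr3, Tgfbi, Inhba, Id4, Tgfb2, Fstl3 and Ltbp1 was not tested.

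Genes with several probe sets gave a check within each array. With TNF, the second probe set above the floor had the same sign for 4 of 4 members at least 1.5-fold apart in FAN -/- and 3 of 3 in FAN +/+ cells, and reached 1.5-fold itself for 4 and 2. For the genotype difference the sign was shared for 5 of 5 with TNF and 6 of 6 untreated, and 1.5-fold was reached for 5 and 5. Probe sets of a gene share their RNA and array, so this bears on the probes and not on the cells.

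**Figure D4:**
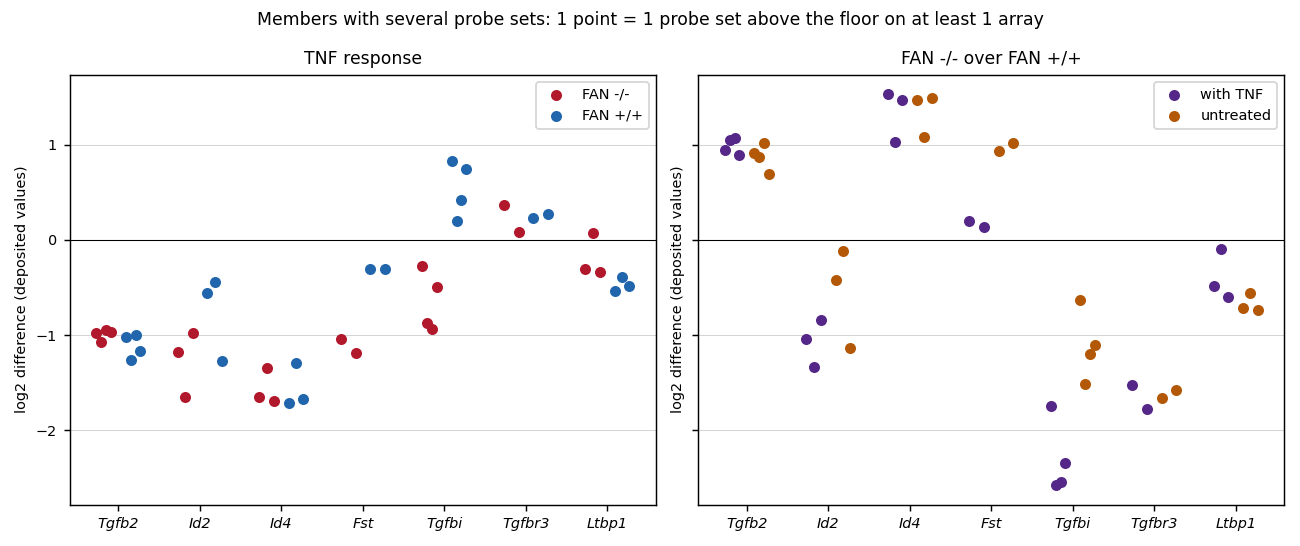
Log2 differences of the deposited values for every probe set above the floor on at least 1 array, for 7 members with several probe sets; left, TNF over untreated in FAN -/- and FAN +/+ cells; right, FAN -/- over FAN +/+ with TNF and untreated. The 3 Id4 and 4 Tgfb2 probe sets lie below 0 in the left panel in both genotypes, and the Tgfbi probe sets lie on opposite sides of 0 in the 2 genotypes, 1 of them with both FAN -/- values under the floor.

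Other genes of the pathway were taken from lists drawn up beside the members. Of 5 further BMP targets above the floor, 1 fell with TNF in limma and 0 rose, against 1.14% and 1.57% of all genes fitted. By genotype 1 fell and 0 rose, against 3.67% and 2.94%. Atoh8, a transcription factor gene, had 7.75 with TNF and 9.00 untreated in FAN -/- cells, and 8.79 with TNF and 9.76 untreated in FAN +/+ cells (limma TNF effect -1.11 ± 0.13 SE, adjusted p = 0.0319). The TNF array was lower in each genotype. Atoh8 was also the gene that fell by genotype, 1.70-fold lower untreated and 2.06-fold lower with TNF in FAN -/- cells (limma -0.90 ± 0.13 SE, adjusted p = 0.0319). Hes1, also a Notch target, was 1.67-fold lower with TNF in FAN -/- and 2.68-fold lower in FAN +/+ cells (limma adjusted p = 0.0696), and Hey1 was 1.36-fold and 2.07-fold lower (limma adjusted p = 0.124). Msx1, a homeobox gene, was 6.95-fold lower untreated and 2.10-fold lower with TNF in FAN -/- than in FAN +/+ cells (limma genotype adjusted p = 0.0764). Its untreated FAN -/- value of 8.11 lay below the FAN +/+ TNF value of 8.92. With TNF, Msx1 was 1.19-fold lower in FAN -/- and 3.96-fold lower in FAN +/+ cells (limma adjusted p = 0.266). Msx2, a related homeobox gene, lay the other way, 1.26-fold higher in FAN -/- and 2.00-fold higher in FAN +/+ cells with TNF (limma 0.67 ± 0.19 SE, adjusted p = 0.183). The median of the 5 was -0.45 in FAN -/- and -1.05 in FAN +/+ cells, against 0.01 and -0.03 over all genes.

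The TGF-beta targets went both ways with TNF. Of 16 above the floor, 2 rose and 3 fell with TNF in limma, against 1.57% and 1.14% of all genes fitted, and the median was -0.13 in FAN -/- and -0.10 in FAN +/+ cells. By genotype 1 of the 16 rose and 0 fell, against 2.94% and 3.67%, with 10 at an unadjusted p under 0.05, against 24.5% of all genes. The gene that rose was Cdkn1a, encoding the cell cycle inhibitor p21, 1.52-fold higher with TNF and 1.60-fold higher untreated in FAN -/- cells (limma 0.64 ± 0.07 SE, adjusted p = 0.0201). Eln, the elastin gene, was 3.69-fold lower in FAN -/- and 3.32-fold lower in FAN +/+ cells (limma -1.81 ± 0.12 SE, adjusted p = 0.0119). Cnn1, encoding the actin-binding calponin 1, was 2.08-fold and 2.01-fold lower (limma adjusted p = 0.0205). Klf10, an immediate TGF-beta response factor gene, was 3.42-fold higher in FAN -/- and 2.11-fold higher in FAN +/+ cells (limma adjusted p = 0.0484). Bhlhe40, a transcriptional repressor gene, was 2.66-fold and 1.86-fold higher (limma adjusted p = 0.0459). Of the 5 smooth muscle markers 2, Cnn1 and Myh11, fell with TNF in limma, against 1.14% of all genes fitted. Acta2, Tagln and Des had TNF effects of 0.04, -0.09 and 0.06 in the fit and did not pass. By genotype 1 of the 5 rose and 0 fell, against 2.94% and 3.67% of all genes fitted. The marker that rose was Des (limma 0.76 ± 0.11 SE, adjusted p = 0.0342). The summed signal of the 5 was 30321 with TNF and 31915 untreated in FAN -/- cells. In FAN +/+ cells it was 25505 with TNF and 26877 untreated. Acta2 gave 14875 and Tagln 14078 of the 30321. The part of smooth muscle cells in these differences was not tested.

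Among 9 SMAD partners and inhibitors above the floor, 1 rose with TNF and 0 fell, against 1.57% and 1.14% of all genes. That gene was Tgif1, a SMAD co-repressor, with 10.35 with TNF and 9.53 untreated in FAN -/- cells, and 10.35 with TNF and 9.51 untreated in FAN +/+ cells (limma 0.84 ± 0.10 SE, adjusted p = 0.0324). The TNF pair was higher and nearly identical. Skil, encoding the SMAD repressor SnoN, was 1.29-fold higher with TNF in FAN -/- and 2.67-fold higher in FAN +/+ cells (limma adjusted p = 0.185). Untreated, Skil was 2.35-fold higher in FAN -/- than in FAN +/+ cells, and with TNF 1.14-fold higher (limma genotype adjusted p = 0.198). By genotype 0 of the 9 fell and 1 rose, against 3.67% and 2.94%: Pmepa1, a feedback inhibitor of TGF-beta signalling, at 2.24-fold higher with TNF and 2.65-fold higher untreated in FAN -/- cells (limma adjusted p = 0.0130).

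Of 9 extracellular antagonists and activators in the fit, 1 fell and 0 rose with TNF, against 1.14% and 1.57% of all genes, and 1 rose and 2 fell by genotype, against 2.94% and 3.67%. The 2 serine protease genes of the list, whose products can bind or cleave TGF-beta family proteins, went opposite ways by genotype. Htra1 was 2.96-fold higher with TNF and 3.60-fold higher untreated in FAN -/- cells (limma 1.71 ± 0.11 SE, adjusted p = 0.00854). Htra3 was 2.56-fold lower with TNF and 2.32-fold lower untreated in FAN -/- cells (limma -1.29 ± 0.12 SE, adjusted p = 0.0152). Htra3 was also lower with TNF, 2.96-fold in FAN -/- and 2.68-fold in FAN +/+ cells (limma adjusted p = 0.0169). Nbl1, the other gene that fell by genotype, was 1.88-fold lower with TNF and 1.61-fold lower untreated in FAN -/- cells (limma -0.80 ± 0.11 SE, adjusted p = 0.0279). Bmper, an extracellular BMP modulator gene, was 1.41-fold higher with TNF in FAN -/- and 2.86-fold higher in FAN +/+ cells (limma adjusted p = 0.149). Itgb8, an integrin subunit that activates latent TGF-beta, lay under the floor on both FAN -/- arrays, at 5.82 with TNF and 5.86 untreated, against 8.43 with TNF and 7.27 untreated in FAN +/+ cells. It was at least 4.47-fold lower in FAN -/- cells with TNF (limma adjusted p = 0.0547).

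None of 7 further ligands and 6 further receptors and co-receptors in the fit passed limma for either factor. At an unadjusted p under 0.05 there was 1 ligand for TNF and 1 for genotype, and 3 receptors for each, against 18.8% of all genes for TNF and 24.5% for genotype. Gdf10 and Acvr2b, an activin type II receptor gene, exceeded the floor on 1 array and were not fitted. Bmpr1b, a type I BMP receptor gene, was 1.44-fold higher with TNF in FAN -/- and 2.64-fold higher in FAN +/+ cells, and Acvr1b, a type I activin receptor gene, 1.29-fold and 2.19-fold. Gdf10, a BMP family ligand gene, exceeded the floor only on the untreated FAN +/+ array, at 7.67, and was at least 2.65-fold lower with TNF in FAN +/+ cells.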

How the data were processed

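RNA of 4 conditions was measured on 1 Affymetrix array each. The values the authors deposited lie on a log2 scale, as their range shows. MAS5 is listed per the submitters' processing notes, with no version or role. How probe sets were summarised, scaled and filtered is not stated by any source used here, and how strongly low values or differences were compressed is unknown. Of 45101 probe sets, 34945 name 1 gene, 932 name several, 9160 have no name here and 64 are controls. Entrez identifiers of 34741 matched the RefSeq table (GRCm38.p6, used for names), and 0 symbols changed.

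Values below the 50th percentile of all values (6.27) were raised to it, and a gene is given by its probe set of highest mean. Differences of 1 array against 1 carry no p-value. The additive model was fitted with limma 3.58.1 (R 4.3.3, lmFit, eBayes with intensity trend, prior degrees of freedom 3.52) and Benjamini-Hochberg adjustment. It took genes that exceeded the floor on 2 or more arrays, 11817 in all. The same fit was run on simulated additive data drawn from its own variance estimates, which cannot show whether the calls here hold. The p-values of the additive fit rest on 1 residual degree of freedom, the gap between the genotypes' TNF responses, moderated over all genes fitted. They do not measure spread between replicate arrays or cell preparations, and the number of arrays limits their precision. Alternatives were no floor, a floor at the 30th percentile, centred arrays, quantile normalization, averaged probe sets, and limma without the trend, the other factor or the low filter.

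The members and lists were chosen with earlier results of these data known. A member is given on all arrays if 2-fold apart in any comparison, 1.5-fold apart the same way in both genotypes or treatments, or past limma. From each further list up to 4 genes meeting such a measure are named, those with the largest mean difference. Genes outside this rule, such as Bmp2, Tgfb1, Ltbp2, Smad7 and Bambi, the genes Msx2, Cdkn1a, Nbl1, Thy1, Des and Acvr2b, and the gap between the genotypes' responses, were chosen for the text once the values were known.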

Additional observations from a re-analysis of the deposited data

How the results depend on the processing

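The counts of members 2-fold apart, and of those 1.5-fold apart the same way in both genotypes or both treatments, stayed within 1.5 times the reported count under no floor, a floor at the 30th percentile, centred arrays, quantile normalization and averaged probe sets. With averaged probe sets, which take in those under the floor, the untreated genotype split was 1 higher and 3 lower, against 3 and 2 as reported, and the genotype effects of Inhba and Tgfbr1 were 0.75 and 0.39, against 1.29 and 0.86. For the additive limma fit the count of members past the threshold was 11 for TNF and 12 for genotype with centred arrays, against 6 and 6 as reported; all 6 reported genes were among them in each case, and the cause was not tested. The members' split with centring was 1 higher and 10 lower for TNF, against 0 and 6, and 5 higher and 7 lower for genotype, against 4 and 2. Over all genes it was 404 higher and 516 lower for TNF, against 186 and 135, and 526 and 970 for genotype, against 347 and 434. The count was 0 for TNF and 0 for genotype when the other factor was left out (9 and 7 members at an unadjusted p under 0.05, lowest adjusted p 0.294 and 0.106), a fit in which the other factor's differences enter the error by construction. It was 0 and 0 with no filter on low genes (14 and 12 members at an unadjusted p under 0.05, lowest adjusted p 0.343 and 0.261), where genes held at the floor on all arrays enter with no variance. No other tool was run. Under the remaining limma alternatives the counts were 4 to 8 for TNF and 5 to 7 for genotype, and Id1, Id4, Tgfb2 and Tgfb3 for TNF and Tgfbr3, Inhba, Id4, Tgfb2 and Fstl3 for genotype passed in each of them. No paired analysis was possible because each condition has 1 array and the labels give no replicate numbers; leaving out an array leaves no residual degree of freedom, so that fit was not run. Low signals limit Bmp2, Nog, Itgb8 and Gdf10, whose values lie partly or wholly under the floor.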
